A study of Mus musculus with 6 samples.

Results

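Interferon-stimulated genes, the antiviral programme that cells switch on when they sense an interferon, were followed in adipose tissue of mice fed radix Angelica sinensis (RAS, a root used in Chinese medicine) and of control mice. The set was a list of 35 gene symbols, and its members were the rows of the deposited table that carried one of these symbols. The table held 34 of the 35 among its 19928 genes, and Ifi27 was not analysed here. Of the 34, 33 had a mean of at least 1 FPKM over the 6 libraries (fragments scaled for transcript length and library depth, a level that can be compared between genes) and were tested. Mx1 lay under that level and was not tested.

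RNA-seq was made from 3 adipose tissue samples of RAS mice and 3 of control mice. All were KM mice, an outbred stock, of a study on obesity under a high-fat diet. The RAS mice received 10.00 g RAS per kg of body weight, and the labels of the other mice give their diet as control. The sources used here do not give the depot, the sex or age of the mice, or whether a sample came from 1 animal or several. The p-values therefore cover only the spread between these 6 samples, which may be in part technical.

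Type I interferons bind the receptor pair Ifnar1 and Ifnar2, whose kinases Jak1 and Tyk2 activate transcription factors such as Stat2. Joined by Irf9, they enter the nucleus and bind a DNA element, the interferon-stimulated response element (ISRE), before the target genes. Interferon gamma signals through another receptor to a different element, the GAS. In fat, the programme can be run by adipocytes, macrophages, vessel cells and lymphocytes alike, and whole tissue RNA mixes them: fewer cells of a type and less RNA per cell cannot be told apart.

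The promoters of 10 members are shown because they hold, or lack, the element that defines the programme. RefSeq promoters (GRCm38.p6; 300 bases each, 250 before and 50 after the gene's start) were at hand for 28 of the 34 members. The ISRE core was searched as GAAA, any 2 bases and GAAA again, on both strands, with overlapping matches allowed. It stood in 16 of the 28 members (57.1%), in 3.99% of the 27025 genes with a promoter in that collection and in 3.44% of its 32851 promoters of this length. The GAS letters TTCNNNGAA, which read the same on both strands, stood in 9 of the 28 members (32.1%) and in 9.55% of those genes, or 8.30% of those promoters. The 120 bases that end just before the start are given 5′ to 3′ on the gene's strand, with the ISRE core in capitals, as TTTC, 2 bases and TTTC where it lies on the other strand.
Isg15, chr4:156200819-156200938, minus strand: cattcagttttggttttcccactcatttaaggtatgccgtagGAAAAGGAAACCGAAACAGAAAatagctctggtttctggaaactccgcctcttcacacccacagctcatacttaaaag
Ifit1, chr19:34640769-34640888, plus strand: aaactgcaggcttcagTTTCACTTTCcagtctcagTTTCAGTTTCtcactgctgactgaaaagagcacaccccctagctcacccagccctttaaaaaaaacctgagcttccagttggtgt
Oas1a, chr5:120907526-120907645, minus strand: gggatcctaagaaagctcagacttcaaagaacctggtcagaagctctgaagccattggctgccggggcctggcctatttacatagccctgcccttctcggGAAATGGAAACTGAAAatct
Rsad2, chr12:26456453-26456572, minus strand: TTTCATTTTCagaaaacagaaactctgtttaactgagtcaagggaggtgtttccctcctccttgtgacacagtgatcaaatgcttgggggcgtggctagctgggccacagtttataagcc
Gbp2, chr3:142620543-142620662, plus strand: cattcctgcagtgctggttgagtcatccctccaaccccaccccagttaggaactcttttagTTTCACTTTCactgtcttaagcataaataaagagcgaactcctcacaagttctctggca
Gbp3, chr3:142559924-142560043, plus strand: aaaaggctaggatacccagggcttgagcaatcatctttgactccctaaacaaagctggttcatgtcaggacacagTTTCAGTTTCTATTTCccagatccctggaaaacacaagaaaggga
Gbp7, chr3:142530216-142530335, plus strand: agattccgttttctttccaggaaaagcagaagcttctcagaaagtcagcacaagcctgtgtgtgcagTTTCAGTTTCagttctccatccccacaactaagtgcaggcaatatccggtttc
Irf7, chr7:141266425-141266544, minus strand: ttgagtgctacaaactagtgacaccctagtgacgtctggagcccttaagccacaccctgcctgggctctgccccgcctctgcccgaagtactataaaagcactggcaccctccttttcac
Ifit2, chr19:34550574-34550693, plus strand: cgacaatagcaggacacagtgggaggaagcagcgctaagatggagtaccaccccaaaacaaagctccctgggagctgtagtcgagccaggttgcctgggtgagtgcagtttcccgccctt
Xaf1, chr11:72301509-72301628, plus strand: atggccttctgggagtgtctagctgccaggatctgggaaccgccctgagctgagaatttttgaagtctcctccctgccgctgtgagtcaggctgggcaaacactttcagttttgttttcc
Isg15 held 3 overlapping cores and Oas1a 2 overlapping cores close to the start, and Ifit1 held 2 separate ones. In the promoters shown, the 3 guanylate-binding genes each had the core within 60 bases of the start. The collection also held a Gbp3 promoter at another start, not shown, with 0 cores. The shown promoters of Irf7, Ifit2 and Xaf1 held no such letters, which says nothing about the factors that bind there.

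The deposited counts, scaled by the authors, summed to 15.1 to 15.7 M in the RAS libraries and 14.1 to 15.2 M in the control libraries. Adipocyte markers (7 of 7 in the table) summed to 43050 to 62620 FPKM with RAS and 33020 to 37230 FPKM in control, mostly from Fabp4. Without Fabp4 the sums of the groups overlapped, at 10330, 12890 and 17030 FPKM in RAS 1, 2 and 3. Control 1, 2 and 3 were then at 10780, 12200 and 11410 FPKM. Adipocyte RNA was thus abundant in every library. Gene by gene, Cidec, Fabp4, Lipe and Pnpla2 had every RAS library above every control library (4 of 7, beside 5.42% of all tested genes). Adipoq, Plin1 and Cfd overlapped, and 0 of the 7 passed the test given below. Of 6 brown or beige fat markers, all in the table, the summed level was 795 FPKM in RAS 3, against 106 and 161 in the other RAS libraries and 37.6 to 245 in control. The 6 liver markers summed to 171 FPKM in control 3, against 12.6 to 16.0 with RAS and 10.1 and 25.4 in the other controls. The 6 skeletal muscle markers summed to 21.8 to 60.4 FPKM with RAS and 68.6 to 195 FPKM in control, highest in control 1, and were mostly Acta1. None of these markers was at 0 in all 6 libraries.

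With RAS, the interferon-stimulated genes as a set were spread around 0 much as all tested genes were. Irf7 and Ifit2 had all 3 RAS values above all 3 control values, Xaf1 was higher on average, Isg15 and Cxcl10 were lower on average, and none of these differences passed the test. On the log2(FPKM + 1) scale, 14 of 33 members had a positive RAS minus control difference and 18 a negative one, with Gbp3 at 0.00. Positive differences made up 42.4% of the members and 43.0% of all 12606 genes tested. This split moved with the processing: on the scaled count signal 19 members were positive and 14 negative (57.6% positive, beside 49.7% of all genes). Without control 3 it was 19 against 13 (59.4% positive, beside 44.3% of all genes). Without control 2 it was 10 against 22 (31.2% positive, beside 37.9% of all genes). The median difference of the members was -0.05, beside -0.04 for all genes tested. The median size of the difference, sign aside, was 0.16 for the members and 0.15 for all genes.

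By limma's moderated test with Benjamini-Hochberg adjustment over all genes tested, 0 of 33 members passed an adjusted p of 0.05, where 0.0% of all genes passed. The smallest adjusted p was 0.355 among the members and 0.138 among all genes. An unadjusted p under 0.05 was reached by 3 members (9.09%), Irf7, Ifit2 and Xaf1, all higher with RAS, beside 10.3% of all genes (3.86% higher and 6.41% lower). Groups had separate FPKM ranges in 2 members (6.06%), Irf7 and Ifit2, beside 17.9% of all genes (5.42% with RAS above control). With direction set aside, both shares over the 6 libraries were near or below those of all genes. By direction, 9.09% of members were higher at that unadjusted p, beside 3.86% of all genes, and 0 were lower, beside 6.41%. For 32 of the 33 members the 95% interval of the difference stayed within 1 log2 unit of 0 in either direction. Xaf1 was the exception. The log2(FPKM + 1) scale understates changes of low genes, and 23 of the 33 members averaged 1 to 10 FPKM. Without control 3 the count at an unadjusted p under 0.05 was 6 of 32 (Cxcl10, Ifit2, Irf7, Oas2, Oasl2 and Xaf1), or 18.8% beside 7.97% of all genes, and 0 members passed.

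**Figure D1:**
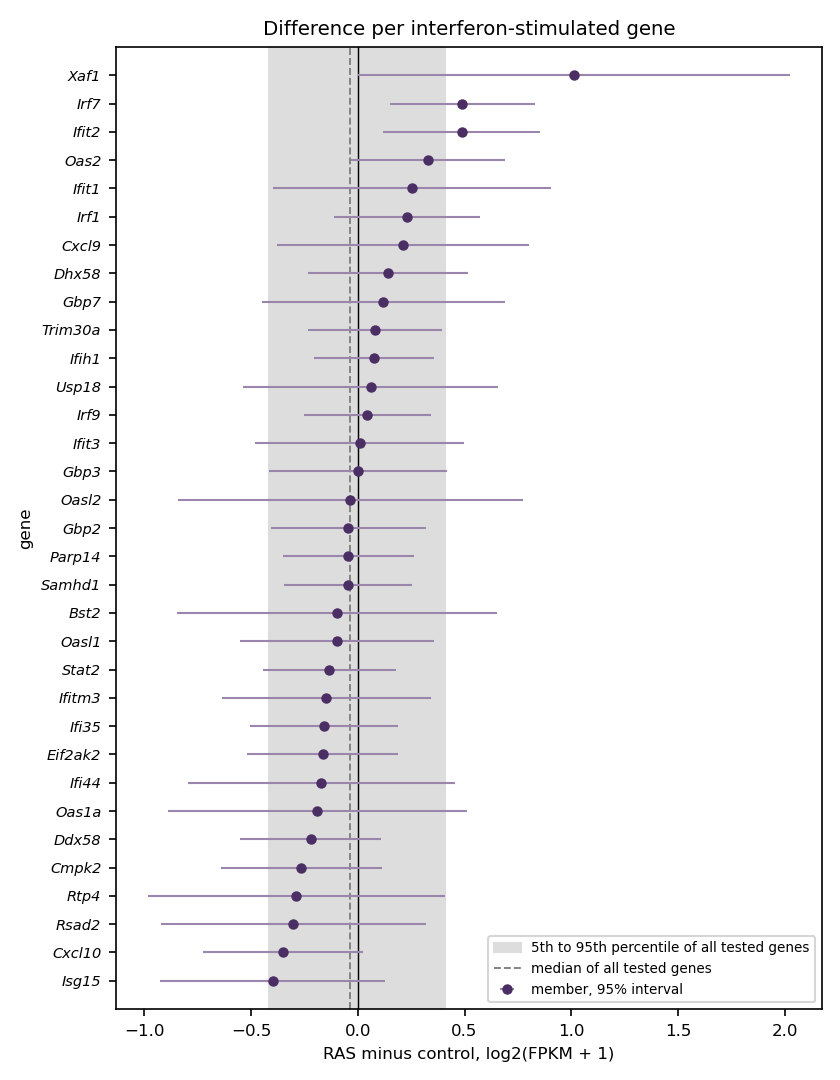
RAS minus control difference on the log2(FPKM + 1) scale for the 33 tested interferon-stimulated genes, in order of size, with 95% intervals from limma (points and bars); the grey band runs from the 5th to the 95th percentile of all tested genes (-0.42 to 0.41) and the dashed line marks their median (-0.04). Xaf1, Irf7 and Ifit2 lie outside the band, Isg15 lies near its lower edge, and most bars cross 0.

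Among the factors that carry the signal, Irf7, the master switch for interferon alpha genes and itself induced by interferon, stood furthest from its controls relative to the spread (chromosome 7, 141263183 to 141266424). Its level was 19.5, 19.2 and 18.7 FPKM in RAS 1, 2 and 3, against 14.1, 10.8 and 15.6 FPKM in control 1, 2 and 3. All 3 RAS libraries were above all 3 controls and within a narrow range, while control 2 was the lowest. The means were 19.1 ± 0.441 and 13.5 ± 2.49 FPKM (SD, n = 3 each). On the log2 scale RAS minus control was 0.49 ± 0.14 (SE; limma adjusted p = 0.355).

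Irf1, a factor induced above all by interferon gamma, was at 25.1, 29.7 and 31.9 FPKM in RAS 1, 2 and 3, and at 21.0, 25.5 and 27.2 FPKM in control 1, 2 and 3. The groups overlapped, and the log2 difference was 0.23 ± 0.15 (SE; limma adjusted p = 0.627), or 0.12 without control 1. Stat2 and Irf9, which act in the complex that binds the ISRE, overlapped as well. Stat2 was at 7.02 to 8.43 FPKM with RAS and 7.28 to 9.79 FPKM in control, and Irf9 at 9.88 to 11.7 FPKM and 9.27 to 12.1 FPKM, with differences of -0.13 and 0.04 log2 units.

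The IFIT proteins bind foreign RNA and hinder its translation. Ifit2 was at 4.94, 7.48 and 5.70 FPKM in RAS 1, 2 and 3, against 3.72, 3.69 and 4.55 FPKM in control 1, 2 and 3 (chromosome 19, 34550694 to 34576534). Each RAS library was above each control, with RAS 2 the highest. The log2 difference was 0.49 ± 0.16 (SE; limma adjusted p = 0.390), with means of 6.04 ± 1.31 and 3.99 ± 0.490 FPKM (SD, n = 3 each). Its neighbours on that chromosome did not share this separation. Ifit1 lay at 2.37 to 4.24 FPKM with RAS and 1.34 to 3.63 FPKM in control, a log2 difference of 0.25 ± 0.28 (SE). Ifit3 averaged 10.5 ± 2.48 FPKM with RAS and 10.5 ± 2.46 FPKM in control (SD, n = 3 each). Family members resemble each other in sequence, and the sources used here do not say how shared reads were assigned.

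**Figure D2:**
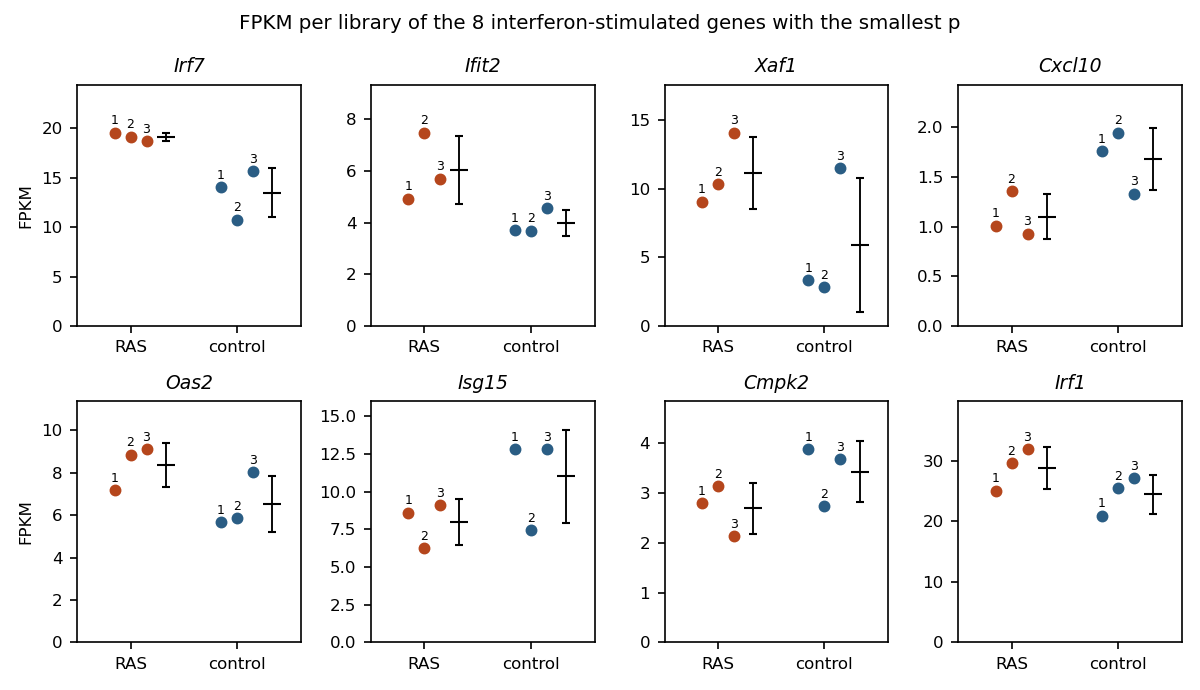
FPKM of the 8 interferon-stimulated genes with the smallest p, 1 panel per gene, with each library as a numbered point (RAS left, control right) and the mean ± SD of the 3 libraries beside it. Irf7 and Ifit2 have no overlap between groups, while in Xaf1 control 3 (11.5 FPKM) lies among the RAS libraries.

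The sensors of double-stranded RNA lay close together in both groups. Ddx58, which encodes RIG-I, was at 6.07, 6.92 and 4.66 FPKM in RAS 1, 2 and 3, and at 7.36, 6.72 and 6.78 FPKM in control 1, 2 and 3. RAS 3 was the lowest library and RAS 2 lay among the controls (log2 difference -0.22 ± 0.14, SE). Ifih1, the sensor MDA5, spanned 4.54 to 5.73 FPKM with RAS and 4.29 to 5.19 FPKM in control, and Dhx58, their relative LGP2, 2.93 to 3.12 FPKM and 1.92 to 3.18 FPKM. Eif2ak2 encodes PKR, the kinase that halts translation when it binds double-stranded RNA. Its level was 4.94 to 7.42 FPKM with RAS, lowest in RAS 3, and 6.67 to 7.77 FPKM in control.

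Oligoadenylate synthetases answer double-stranded RNA by making the messenger that activates RNase L. Oas2 was at 7.18, 8.85 and 9.11 FPKM in RAS 1, 2 and 3, and at 5.68, 5.85 and 8.02 FPKM in control 1, 2 and 3. Control 3 stood above RAS 1, and the log2 difference was 0.33 ± 0.15 (SE; limma adjusted p = 0.521). Oas1a, which has close copies beside it, did not order by group, with 2.28 to 4.18 FPKM under RAS and 1.93 to 5.19 FPKM in control. Oasl1, known in mice to hold back translation of Irf7, lay at 0.641 to 1.22 FPKM with RAS and 0.709 to 1.33 FPKM in control, on scaled counts of 20.6 to 42.2. For Oasl2 the RAS libraries spanned 6.10 to 7.40 FPKM, whereas control 3 was at 13.5 FPKM and controls 1 and 2 at 4.55 and 5.05 FPKM. The sign of its small difference, -0.04 log2 units, turned under other scalings of the libraries.

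Isg15 encodes a ubiquitin-like protein that is attached to other proteins in the interferon response. Its level was 8.59, 6.26 and 9.09 FPKM in RAS 1, 2 and 3, against 12.8, 7.45 and 12.8 FPKM in control 1, 2 and 3 (chromosome 4, 156199424 to 156200818). All RAS libraries were under controls 1 and 3, and control 2 lay among them. The log2 difference was -0.40 ± 0.22 (SE; limma adjusted p = 0.587). It was -0.63 without control 2 (adjusted p = 0.523) and -0.25 without RAS 2 (adjusted p = 0.745). Usp18, which strips Isg15 from its targets and restrains the interferon receptor, lay at 1.78 to 2.24 FPKM with RAS. In control it was at 0.901 FPKM in control 2 and at 2.21 and 2.78 FPKM in controls 1 and 3. A gene model, Gm20035, shares the Usp18 locus in the table.

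The most abundant members act at membranes. Ifitm3, which blocks the entry of viruses through endosomes, was at 174 to 219 FPKM with RAS and 186 to 288 FPKM in control, and Bst2, the tetherin that holds budding virus at the cell surface, at 56.2 to 112 FPKM and 68.2 to 126 FPKM. Control 3 was the highest library for both. Gbp2, a guanylate-binding GTPase of the interferon gamma response, averaged 51.4 ± 6.83 FPKM with RAS and 53.1 ± 7.31 FPKM in control (SD, n = 3 each). Its relative Gbp3 spanned 8.19 to 10.7 FPKM with RAS and 7.40 to 11.7 FPKM in control. Gbp7 reached 15.1 FPKM in RAS 2, against 9.37 and 6.91 FPKM in RAS 1 and 3 and 8.53 to 9.66 FPKM in control. Mx1, a dynamin-like GTPase that acts against influenza viruses, lay at 0.359 to 0.539 FPKM with RAS and 0.306 to 0.786 FPKM in control.

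The 3 enzymes that act on nucleotides had negative differences, none past the test, where 43.0% of all tested genes had a positive one. Cmpk2, a mitochondrial nucleotide kinase, was at 2.80, 3.14 and 2.14 FPKM in RAS 1, 2 and 3, and at 3.88, 2.74 and 3.69 FPKM in control 1, 2 and 3 (log2 difference -0.26 ± 0.16, SE; limma adjusted p = 0.615). Control 2 lay within the RAS range, and without RAS 3 the difference was -0.15. Rsad2, its neighbour on chromosome 12 and the gene of viperin, which makes a chain-terminating nucleotide, ran from 1.29 FPKM in RAS 3 to 3.68 FPKM in RAS 2. The controls lay between, at 2.32 to 3.24 FPKM. Samhd1, which breaks down the building blocks of DNA, was at 18.3 to 21.3 FPKM with RAS and 18.5 to 23.0 FPKM in control. Its difference was -0.05 log2 units, and 0.02 on the scaled count signal.

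Both chemokines draw activated T cells through the same receptor. Cxcl10 was at 1.01, 1.36 and 0.929 FPKM in RAS 1, 2 and 3, and at 1.76, 1.95 and 1.33 FPKM in control 1, 2 and 3. RAS 2 and control 3 overlapped by a narrow margin (log2 difference -0.35 ± 0.16, SE; limma adjusted p = 0.502). The value rests on scaled counts of 14.4 to 31.0, and the table places Cxcl10 on a locus shared with Cxcl11 and Art3. Cxcl9 showed no such order, with 11.7 to 15.5 FPKM under RAS and 7.12 to 14.6 FPKM in control, lowest in control 3.

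Xaf1, which promotes cell death by binding the apoptosis inhibitor XIAP, had the largest difference of the 33 members. It was at 9.06, 10.3 and 14.1 FPKM in RAS 1, 2 and 3, against 3.35, 2.84 and 11.5 FPKM in control 1, 2 and 3 (chromosome 11, 72301629 to 72313733). Control 3 lay within the RAS range, and the other controls lay far below it. The log2 difference was 1.01 ± 0.43 (SE; 95% interval 0.00 to 2.02; limma adjusted p = 0.486). Without control 3 it was 1.55 (adjusted p = 0.340), and without RAS 3 and control 1 it was 0.62 (adjusted p = 0.662).

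The other induced proteins overlapped between groups. Rtp4, a chaperone of membrane receptors, was at 4.91 to 5.82 FPKM with RAS, while controls 1 and 3 were at 9.19 and 8.58 FPKM and control 2 at 3.55 FPKM. Ifi44 took the same order among the controls, with 3.09, 1.17 and 2.59 FPKM in control 1, 2 and 3, and spanned 1.42 to 2.54 FPKM with RAS. Ifi35, a partner of the protein Nmi, lay at 17.5 to 24.6 FPKM with RAS and 21.7 to 23.0 FPKM in control. The ADP-ribosyltransferase Parp14 lay at 6.53 to 9.06 FPKM with RAS and 7.35 to 8.27 FPKM in control. Trim30a, a mouse protein that restrains Toll-like receptor signalling, spanned 6.06 to 7.74 FPKM with RAS and 5.52 to 7.29 FPKM in control.

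**Figure D3:**
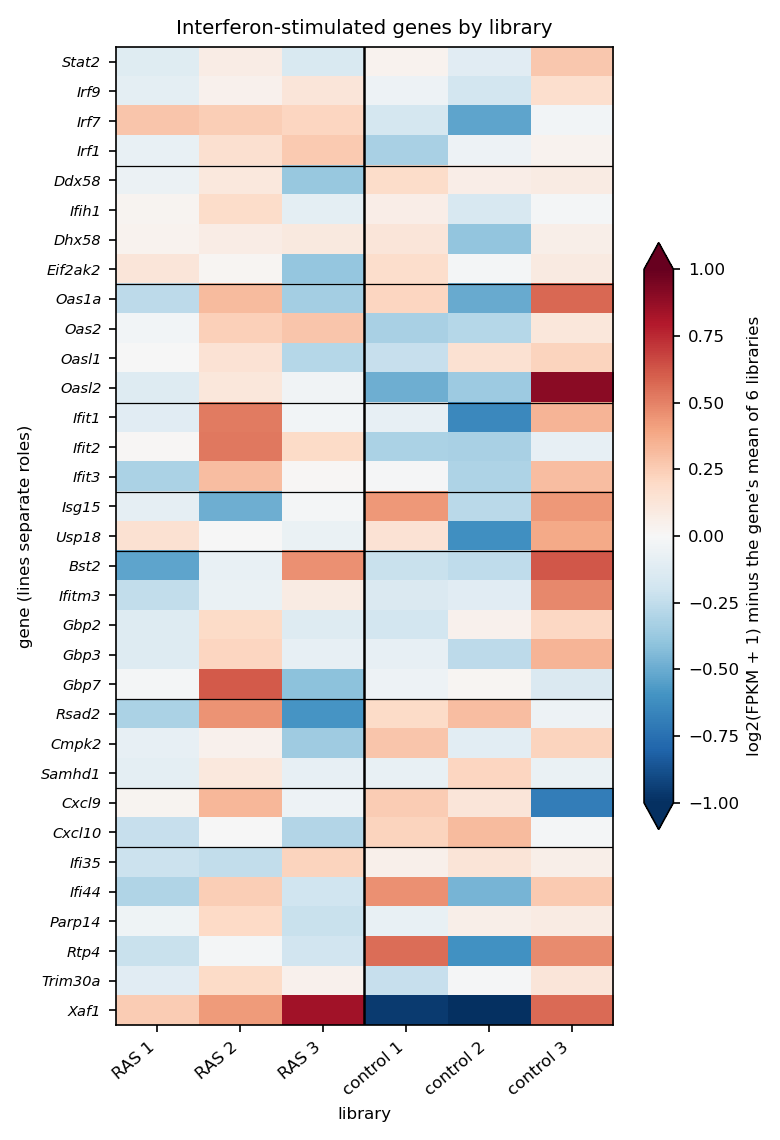
Level of each tested interferon-stimulated gene in each library, as log2(FPKM + 1) minus the gene's mean over the 6 libraries (red above, blue below, colours end at 1 and -1); the vertical line parts RAS (left) from control (right) and horizontal lines part the roles. RAS 2 was the highest RAS library in 21 of the 33 rows, and control 3 the highest control library in 20.

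Within each group, the members tended to be high in the same library. Among the 3 RAS libraries, RAS 2 was the highest for 21 of the 33 members (63.6%, against 26.3% of all tested genes). RAS 1 was the lowest for 16 (48.5%, against 28.4% of all tested genes) and RAS 3 for 15 (45.5%, against 36.3%). Among the controls, control 3 was the highest for 20 (60.6%, against 33.2% of all tested genes) and control 2 the lowest for 19 (57.6%, against 45.1%). The highest control was at least 2 times the lowest for 8 members, which is 24.2% of them, beside 9.67% of all tested genes. The same held for 2 members (6.06%) among the RAS libraries, beside 8.88% of all tested genes. Genes of 1 list are regulated together and are not independent, so these shares describe the libraries and carry no test.

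The 8 members with that spread among controls were Oas1a, Oasl2, Ifit1, Usp18, Ifi44, Rtp4, Xaf1 and Cxcl9. Control 2 was the lowest control in Oas1a, Ifit1, Usp18, Ifi44, Rtp4 and Xaf1, and control 3 in Cxcl9. The typical SD within a group, as the median over members of the SD of log2(FPKM + 1), was 0.20 with RAS and 0.24 in control, beside 0.17 and 0.16 for all tested genes.

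The 9 macrophage markers, all in the table, gave no single order of the libraries. Their sum was 451, 594 and 505 FPKM in RAS 1, 2 and 3, and 370, 496 and 586 FPKM in control 1, 2 and 3, and most of it was Lyz2, the lysozyme gene of myeloid cells. Without Lyz2 the sum was 130, 160 and 162 FPKM in RAS 1, 2 and 3, and 141, 170 and 142 FPKM in control 1, 2 and 3. RAS 2 was the highest RAS library for 4 of the 9 and RAS 3 for 5, and control 2, the lowest control for most members, was the highest for 6 of the 9. The 6 markers of B and plasma cells summed to 60.5 FPKM in RAS 3 and 77.1 FPKM in control 3, against 15.6 to 27.4 FPKM in the other libraries. Of this, Jchain, which links antibody units in plasma cells, made up 43.6 FPKM in RAS 3 and 59.2 FPKM in control 3. T and NK cell markers (12 of 12) summed to 10.3 to 16.0 FPKM with RAS and 10.2 to 13.8 FPKM in control, with 8 of the 12 under 1 FPKM. The 9 dendritic cell markers summed to 8.80 to 13.6 FPKM with RAS and 11.6 to 19.6 FPKM in control, with 6 of the 9 under 1 FPKM. Most of the sum was Cd209a. Control 2 was the highest control for 7 of the 9, and RAS 2 the highest RAS library for 4. The part of these cells, and of the liver markers in control 3, in the order of the libraries was not tested.

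**Figure D4:**
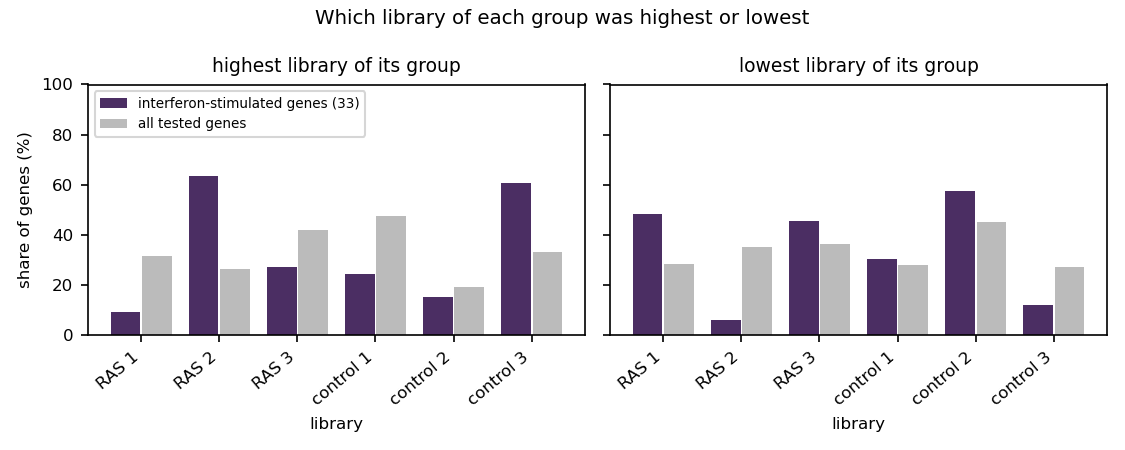
Share of genes (%) for which each library was the highest (left panel) or the lowest (right panel) of the 3 libraries of its own group, for the 33 interferon-stimulated genes (dark bars) and all 12606 tested genes (grey bars). RAS 2 and control 3 were highest for 63.6% and 60.6% of the members, and control 2 was lowest for 57.6%.

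Interferons themselves were scarcely measured. Of 24 listed interferon and receptor genes, 8 were found in the table, and Ifnb1 was not analysed here. Ifng, interferon gamma, lay at 0.0539 to 0.107 FPKM with RAS and 0.0921 to 0.108 FPKM in control, on scaled counts as low as 1.05. The 5 receptor genes tested were expressed in all libraries and none passed. Ifnar1, the first chain of the type I receptor, was at 8.96, 9.48 and 7.55 FPKM in RAS 1, 2 and 3, and at 10.5, 9.92 and 9.48 FPKM in control 1, 2 and 3. All its RAS values lay below all control values, by the smallest margin between RAS 2 and control 3 (log2 difference -0.19 ± 0.11, SE; limma adjusted p = 0.615). Its partner Ifnar2 averaged 59.9 ± 8.89 FPKM with RAS and 55.3 ± 9.46 FPKM in control (SD, n = 3 each). Ifngr1 and Ifngr2, the receptor of interferon gamma, had log2 differences of 0.07 and -0.06.

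In the relay from the receptor and its brakes, 4 of 13 genes tested had a positive difference and 9 a negative one (30.8% positive, beside 43.0% of all genes; median -0.10), with 0 past the test. An unadjusted p under 0.05 was reached by 3, Socs1, Socs3 and Ptpn1, all lower with RAS (23.1%, beside 10.3% of all genes and 6.41% lower). Other restraints in the list were picked here after their values were seen. Their log2 differences were -0.07 for Ptpn2, -0.10 for Ptpn6, -0.21 for Ptpn11, 0.00 for Pias1 and 0.27 for Irf2. In Socs1, Socs3, Ptpn1 and Ptpn11 every RAS library was below every control library (4 of 13, beside 12.5% of all tested genes). Socs1, which binds and blocks the Jak kinases, was at 1.01, 0.994 and 1.54 FPKM in RAS 1, 2 and 3, against 2.54, 2.11 and 3.10 FPKM in control 1, 2 and 3. The groups did not overlap (log2 difference -0.71 ± 0.17, SE; limma adjusted p = 0.278), on scaled counts down to 9.46. Socs3 averaged 1.96 ± 0.151 FPKM with RAS and 3.06 ± 0.852 FPKM in control (SD, n = 3 each), and the phosphatase gene Ptpn1 10.1 ± 0.952 and 12.7 ± 0.894 FPKM. Among the kinases, log2 differences were -0.21 for Jak1 and 0.00 for Tyk2.

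Upstream of interferon, 5 of the 20 tested genes of nucleic acid sensing were positive and 15 negative (25.0% positive, beside 43.0% of all genes), with a median of -0.11 beside -0.04 for all genes. None of the 20 passed (limma adjusted p at least 0.325), and 3 had an unadjusted p under 0.05, all negative (3 of 20, beside 10.3% of all genes and 6.41% lower). Traf3, an adaptor shared by the sensing pathways, was at 2.92, 2.87 and 2.21 FPKM in RAS 1, 2 and 3, against 4.15, 4.42 and 3.69 FPKM in control 1, 2 and 3 (log2 difference -0.47 ± 0.13, SE). Irf8, a factor of monocytes and dendritic cells, averaged 3.50 ± 0.666 FPKM with RAS and 5.17 ± 0.466 FPKM in control (SD, n = 3 each). Tlr7, a receptor for single-stranded RNA, averaged 2.70 ± 0.156 and 3.87 ± 0.696 FPKM. In these 3 genes every RAS library was below every control library, a pattern that 12.5% of all tested genes showed. Mavs, through which RIG-I and MDA5 signal, and Irf3, the factor it activates, had differences of -0.06 and 0.04.

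A further 70 interferon-stimulated genes outside the members also held no gene past the test. Of the 63 tested, 39 were positive and 24 negative (61.9% positive, beside 43.0% of all genes; median 0.03), with 0 past the test. An unadjusted p under 0.05 was reached by 5, all higher with RAS (7.94%, beside 10.3% of all genes and 3.86% higher). Epsti1 was at 3.75, 4.84 and 4.59 FPKM in RAS 1, 2 and 3, against 3.14, 2.75 and 2.02 FPKM in control 1, 2 and 3 (log2 difference 0.57 ± 0.16, SE; limma adjusted p = 0.325). Trim25, the ubiquitin ligase that helps RIG-I signal, averaged 16.6 ± 1.88 FPKM with RAS and 12.5 ± 0.762 FPKM in control (SD, n = 3 each). Trim34a averaged 4.61 ± 0.447 and 3.14 ± 0.588 FPKM, and Daxx, a histone chaperone, 14.9 ± 3.17 and 10.9 ± 0.675 FPKM. The same libraries led as for the members. RAS 2 was the highest of its group for 37 of the 63 genes (58.7%, beside 26.3% of all tested genes). Control 3 was the highest control for 30 (47.6%, beside 33.2%), and control 1 for 24 (38.1%, beside 47.7%).

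Ifi27l2a, a relative of the listed Ifi27, is named here after its values were seen because it was far more abundant than any member. It was at 781, 1905 and 2490 FPKM in RAS 1, 2 and 3, and at 3040, 3938 and 2299 FPKM in control 1, 2 and 3. RAS 1 was the lowest library and RAS 3 overlapped control 3 (log2 difference -0.96 ± 0.45, SE; limma adjusted p = 0.519).

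**Figure D5:**
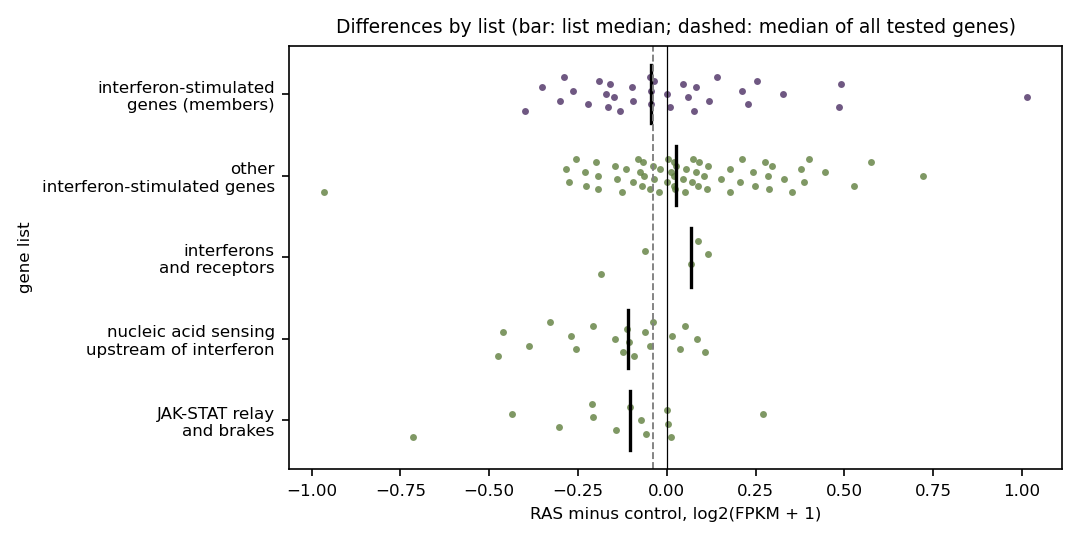
RAS minus control difference on the log2(FPKM + 1) scale for every tested gene (points) of the 33 interferon-stimulated genes and of 4 further lists, 1 row per list, with the list's median as a bar and the median of all tested genes dashed. The medians are -0.05, 0.03, 0.07, -0.11 and -0.10 from the top row down.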

How the data were processed

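Adipose tissue RNA of 3 RAS and 3 control samples was sequenced from poly(A) RNA on an Illumina HiSeq instrument, per the labels' protocols. FPKM values per gene were used as deposited by the authors. The submitters' processing notes list TopHat2 2.0.9 and Cufflinks 2.1.1. The sources used here give no genome build, annotation or strand setting. The authors also deposited a count signal per gene, scaled between samples and so not whole numbers, and no count model was run on it. Columns were read as RAS where they bear the group name that the protocol ties to RAS feeding, and the other numbered set of 3 as control by elimination. The 4 columns of group values were not used. Table loci overlapped the GENCODE M21 (GRCm38) gene of the same identifier for 99.67% of 18403 genes. In 12 of 34 members the table's start was 1 base before GENCODE's and in 0 the same, so 1 was added to starts to count from 1.

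The test was limma's moderated test with a trend on log2(FPKM + 1), RAS minus control, two-sided, for the 12606 genes that averaged 1 FPKM or more, adjusted over all of them, with a threshold of 0.05. Such fold changes understate those of low genes. Every member is named. The 8 members with the smallest p have all values and a p, and up to 4 genes of each other list with the smallest p are named, with 12 pathway genes fixed by name, 1 of which is not reported here. Members and lists were chosen with earlier results of these data known. Of 129 list genes, 113 were in the table, 6 of them under another symbol.

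The test was checked on simulated data with known changes. Analyses used R 4.3.3, limma 3.58.1, Python 3.11.15, pandas 2.3.3, numpy 2.4.6 and matplotlib 3.10.9.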

Additional observations from a re-analysis of the deposited data

How the results depend on the processing

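Of 15 alternatives, 13 were planned: a pseudocount of 0.1, no minimum FPKM, a minimum of 5, median-ratio size factors, quantile normalization, robust estimation of the variance, the replicate block, and the 6 libraries left out in turn. The scaled count signal in place of FPKM, and RAS 3 and control 1 left out together, were chosen after seeing the data. Under all 15, 0 interferon-stimulated genes passed the threshold. Irf7 kept its sign in all 15 (log2 0.35 to 0.60, adjusted p 0.293 to 0.600), as did Ifit2 (0.34 to 0.69, adjusted p 0.309 to 0.644), Xaf1 (0.62 to 1.55, adjusted p 0.295 to 0.717), Oas2 (0.19 to 0.47), Isg15 (-0.63 to -0.25) and Irf1 (0.05 to 0.32). Cxcl10 (-0.57 to -0.27) and Cmpk2 (-0.38 to -0.08) kept theirs in the 14 that tested them. Under the scaling alternatives 28 of 33 members kept their sign, and Oasl2, Gbp2, Samhd1 and Parp14 did not. Gbp3, at 0.00 in the main fit, was at 0.07 with quantile normalization, 0.04 with median-ratio size factors and 0.07 on the scaled count signal. The median of the members lay between -0.13 and 0.07 with 1 library left out.

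The groups share replicate numbers, to which the labels give no meaning. Correlations of same-numbered deviations were 0.178, 0.096 and 0.219, and each sample correlated best with its own number. The other pairs lay between -0.17 and 0.011. Whether the numbers mark a pairing or a shared step cannot be told, and the main fit used no block. With the replicate block 5 members had an unadjusted p under 0.05 (15.2%, beside 13.2% of all genes), against 3 without it (9.09%, beside 10.3%), and 0 passed. With 1 library left out, that count was 2 to 6, where 7.83% to 10.8% of all genes reached it. Members whose groups did not overlap numbered 3 to 7 there (9.09% to 21.9%, beside 26.6% to 30.8% of all genes), and 5 without RAS 3 and control 1 (15.2%, beside 46.5%). Over all genes, 0 to 2 passed with 1 library left out (H2-T9 without RAS 1, Cd1d2 without RAS 2, Gm19601 and Gm6293 without control 1) and 3 without RAS 3 and control 1 (Gm19601, Gm5526 and Gm6293); the cause was not tested. Depth limits Cxcl10 and Oasl1, whose scaled counts went down to 14.4 and 20.6.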
